A study of Homo sapiens with 4 samples.

Results

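The clustered histone genes are the protein-coding genes named HIST1H, HIST2H, HIST3H or HIST4H in GENCODE release 29 on the human genome build hg38. Of the 26518 genes in the expression table, 71 carried such a name. Of these, 43 averaged 1 TPM or more and were tested, and 28 averaged less. TPM is a measure of transcript abundance, in which reads are divided by gene length and each library is brought to a common total.

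The RNA-seq libraries came from MDA-MB-468 cells, an established human epithelial line derived from a breast tumour of the triple-negative type. The cells carried a pGIPZ lentivirus with a short hairpin RNA that targets SASH1, which encodes an adaptor protein of cell signalling (shSASH1, 2 libraries), or the control pGIPZ lentivirus (shControl, 2 libraries). Both groups were puromycin-selected stable clones grown in DMEM with fetal bovine serum, and the comparison asks which transcripts differ when SASH1 is depleted. Whether the replicates were grown separately, or carry different clones or hairpins, is not in the labels, so each p-value reflects the spread among these 4 libraries alone, and that spread may be technical.

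Histones are the proteins around which DNA is wrapped. H2A, H2B, H3 and H4 form the core of the nucleosome, and H1 binds the DNA between cores. Most of their genes lie in clusters that are transcribed together in S phase, when new DNA needs packaging, with NPAT as the activator at the histone locus body. Their main mRNAs end in a conserved stem-loop bound by SLBP in place of a poly(A) tail, although some of these genes also make polyadenylated transcripts in cycling, arrested and differentiated cells. Whether poly(A) RNA was selected is not given in the sources used here.

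SASH1 itself stood at 3.65 and 4.01 TPM in shSASH1 cells, against 14.99 and 13.03 TPM in shControl cells. It was lower in both shSASH1 libraries, by a log2 change of -1.63 ± 0.13 (SE; limma adjusted p = 0.00391). The rebuilt read totals were 24383694 and 19566576 in shSASH1 and 20807316 and 24203510 in shControl. All 7 epithelial markers were present, EGFR being the only 1 that passed (log2 change 0.97 ± 0.07, limma adjusted p = 0.0034). Of 5 fibroblast markers, COL1A2 and LUM were at 0 in all 4 libraries, and the summed level of the list was 9.05 and 10.9 TPM in shSASH1 and 6.998 and 6.319 TPM in shControl, nearly all of it COL1A1. The 5 leukocyte markers summed to 33.4 and 96.6 TPM in shSASH1 and 33.49 and 39.96 TPM in shControl, almost all of it CD14, with PTPRC at 0.0831 and 0.104 TPM in shSASH1 and at 0 in shControl. The 3 endothelial markers summed to 1.17 and 1.57 TPM in shSASH1 and 2.61 and 2.44 TPM in shControl.

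In these cells, 7 clustered histone genes rose with SASH1 depletion and 2 fell. Those that rose were HIST1H2AC, HIST1H2BK, HIST1H2BD, HIST1H4I, HIST1H4H, HIST1H1C and HIST3H2A, 1 linker histone gene and 6 core histone genes without any for H3. HIST1H2BC and HIST1H3A fell. The 9 calls are 20.9% of the 43 tested members, below the 32.0% of all 14458 tested genes that passed in either direction (limma, Benjamini-Hochberg adjusted p under 0.05). By direction, 18.8% of all tested genes were called higher and 13.3% lower. Without adjustment, 9 members had p under 0.05 with higher and 3 with lower values in shSASH1. The median log2 change of the 43 was 0.25, beside 0.06 for all tested genes, with 29 positive and 14 negative values.

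The expressed members held few reads, and calls were more frequent among those with more reads. The median read number per library over the 43 members, rebuilt from TPM and gene length, was 15.5. Among the 21 members with a mean of at least 20 reads, 7 were called higher and 1 lower, which is 38.1%. Among the 22 with fewer reads, 1 was called lower and 0 higher by limma (at an unadjusted p under 0.05, 1 higher and 2 lower, and 0 in either direction by voom on rebuilt reads), which is 4.55%. The median within-group SD over the members was 0.36 log2 units in shSASH1 and 0.19 in shControl. Over all tested genes it was 0.13 in shSASH1 and 0.05 in shControl. The groups did not overlap in 22 members (51.2%), with shSASH1 above shControl in 16 and below it in 6, while 73.6% of all tested genes did not overlap.

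**Figure D1:**
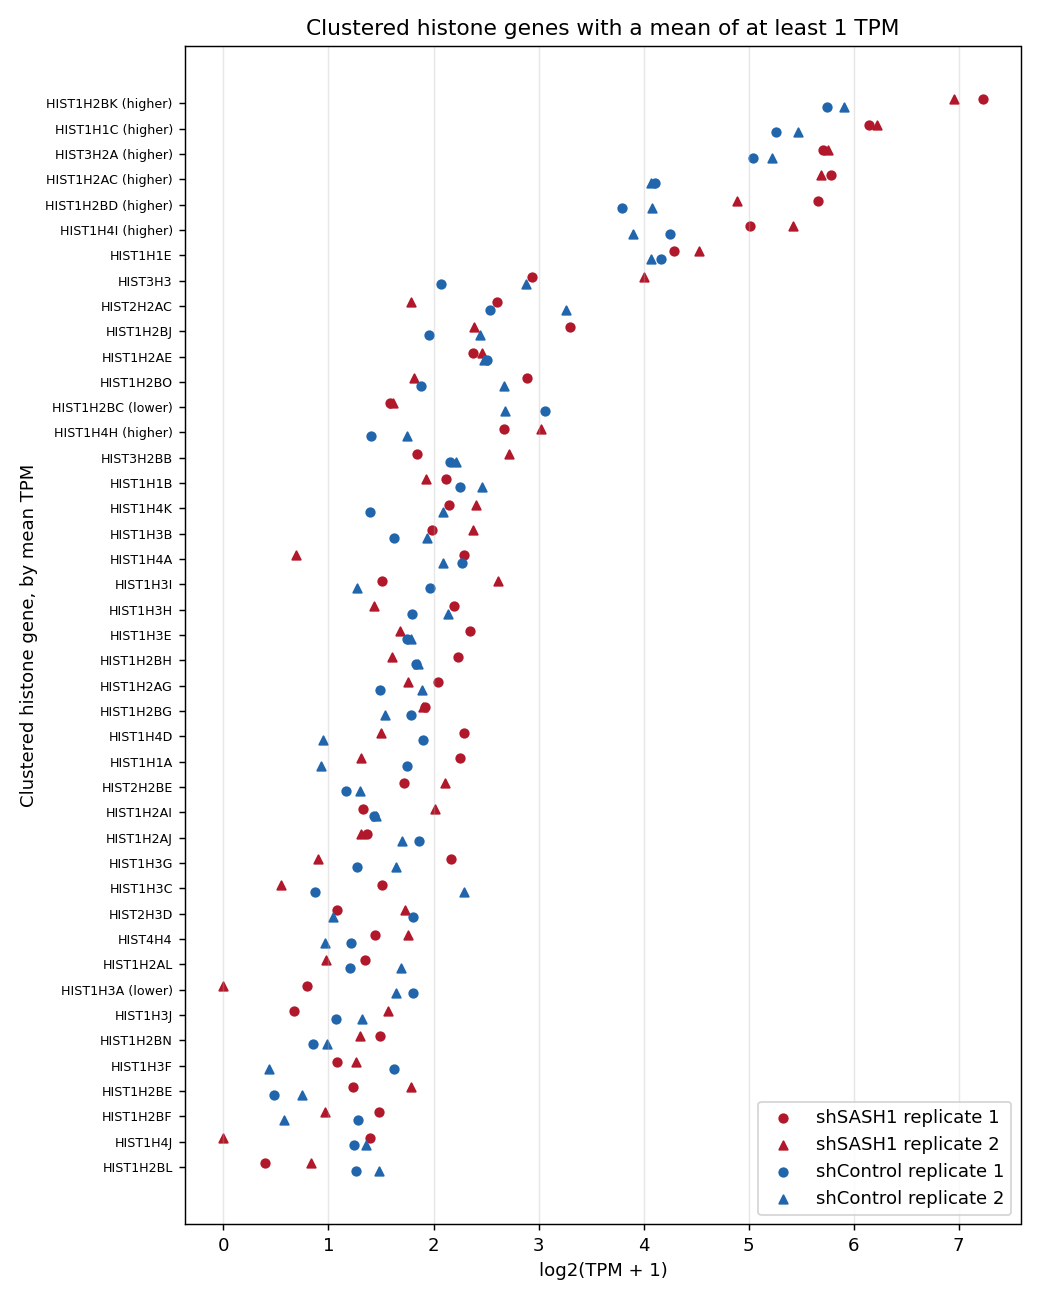
Level as log2(TPM + 1) of the 43 clustered histone genes averaging 1 TPM or more, ordered by mean TPM, with 1 point per library (red shSASH1, drawn slightly above blue shControl) and calls by limma written beside the gene name. HIST1H2BK, HIST1H1C, HIST3H2A, HIST1H2AC, HIST1H2BD and HIST1H4I stand farthest to the right, with both shSASH1 points to the right of both shControl points, and among the lower genes many rows overlap.

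The proximal promoters of the genes that rose or fell differ in the short motifs they hold, and 5 are shown to let them be compared. Windows from 250 bases before the RefSeq start to the base before it (GRCh38.p14) were found for 65 of the 71 members. HIST1H2AH, HIST1H4A, HIST1H4C, HIST1H3J, HIST1H3I and HIST1H2BE had no entry. The sequences run 5′ to 3′ on the strand of the gene. Capitals mark matches on either strand, anywhere in the window, to TATAA (letters of many TATA boxes), CCAAT (letters of the CCAAT box) and ATTTGCAT (the octamer bound by POU2F1). No match overlapped one to a different motif, and neighbouring matches to the same motif can share letters, as at the first TATAA of HIST1H2BK. HIST1H2AC lies at chr6:26123922-26124171 (+), HIST1H2BK at chr6:27146859-27147108 (-), HIST1H2BD at chr6:26157871-26158120 (+), HIST1H1C at chr6:26056471-26056720 (-) and HIST1H4H at chr6:26285535-26285784 (-).
HIST1H2AC: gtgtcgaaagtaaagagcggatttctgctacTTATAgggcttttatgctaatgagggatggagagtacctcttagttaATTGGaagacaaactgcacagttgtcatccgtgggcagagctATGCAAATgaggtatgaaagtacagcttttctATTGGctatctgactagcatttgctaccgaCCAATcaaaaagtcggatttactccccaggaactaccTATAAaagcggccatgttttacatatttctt
HIST1H2BK: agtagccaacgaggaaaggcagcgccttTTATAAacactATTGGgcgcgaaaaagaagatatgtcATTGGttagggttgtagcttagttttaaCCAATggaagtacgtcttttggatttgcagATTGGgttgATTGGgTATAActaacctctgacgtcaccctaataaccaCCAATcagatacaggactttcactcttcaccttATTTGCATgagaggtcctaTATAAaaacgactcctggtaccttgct
HIST1H2BD: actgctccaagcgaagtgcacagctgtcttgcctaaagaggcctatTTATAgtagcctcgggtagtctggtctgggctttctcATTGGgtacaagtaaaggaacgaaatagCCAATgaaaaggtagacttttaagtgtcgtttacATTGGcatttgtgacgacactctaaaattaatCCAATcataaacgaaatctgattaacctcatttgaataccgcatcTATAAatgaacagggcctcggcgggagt
HIST1H1C: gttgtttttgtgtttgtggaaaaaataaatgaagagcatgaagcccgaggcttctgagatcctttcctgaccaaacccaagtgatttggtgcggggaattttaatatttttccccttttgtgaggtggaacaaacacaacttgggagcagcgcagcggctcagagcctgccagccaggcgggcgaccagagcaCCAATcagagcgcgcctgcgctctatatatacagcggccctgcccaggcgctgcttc
HIST1H4H: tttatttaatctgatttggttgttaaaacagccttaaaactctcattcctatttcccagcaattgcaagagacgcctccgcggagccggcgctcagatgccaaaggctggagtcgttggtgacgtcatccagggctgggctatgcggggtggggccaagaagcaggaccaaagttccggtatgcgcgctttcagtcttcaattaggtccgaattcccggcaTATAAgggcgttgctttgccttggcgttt
The HIST1H2AC window covers nearly all of the promoter window of HIST1H2BC, read on the other strand, and it holds all 3 motifs, as does that of HIST1H2BK. The octamer letters were not found in the windows of HIST1H2BD, HIST1H1C and HIST1H4H, CCAAT not in that of HIST1H4H, and TATAA not in that of HIST1H1C. The HIST1H1C window does hold tatatata near its end, so the absence of TATAA there does not mean that a TATA box is absent.

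Across the 65 windows, TATAA was present in 60 (92.3%), CCAAT in 55 (84.6%) and ATTTGCAT in 25 (38.5%). In all 27305 RefSeq windows of the same length the shares were 19.6%, 33.0% and 1.66%. The octamer was found in 11 of 16 H2A windows and 13 of 17 H2B windows, in 1 of 13 H3 windows and in none of the 6 H1 or 13 H4 windows. That H3 window belongs to HIST1H3D, is the same as the window of HIST1H2AD, and is counted for both genes. The GENCODE start of HIST1H3D lies 2043 bases from the RefSeq start used for it. Those of HIST1H4I, HIST1H2BN, HIST1H3G and HIST1H4H lie upstream of the RefSeq start, at positions -694, -809, -402 and -104. The windows of HIST1H4I, HIST1H2BN and HIST1H3G therefore lie inside their GENCODE genes. CCAAT was found in every H1, H2A, H2B and H3 window and in 3 of 13 H4 windows. Of the 7 genes called higher, 5 had TATAA, 6 CCAAT and 2 the octamer. The only TATAA of HIST1H4I lay far from the start, at position -239, as did those of HIST1H2BO (-213) and HIST1H2BH (-244). Counts of TATAA are therefore not counts of TATA boxes. These are matches of letters in a window and say nothing of binding.

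The stem-loop that ends histone mRNAs differs little between members, and the 4 commonest forms are given for the members they occur in. In the GENCODE transcripts, the pattern GGCNCTTNTNAGNGCC, searched on the sense strand, was present in 32 members, 23 of them tested, and in 10 of 19851 other protein-coding genes (0.0504%). Capitals mark the 4 bases of the loop.
HIST1H2AC, HIST3H2A and 15 other members: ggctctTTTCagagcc
HIST1H2BC, HIST1H2BD, HIST1H2BF, HIST1H3G and HIST3H3: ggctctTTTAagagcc
HIST1H4H and 4 other H4 members: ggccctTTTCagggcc
HIST1H4I, HIST2H4A and HIST2H4B: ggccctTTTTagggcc
HIST1H2BD, which rose, and HIST1H2BC, which fell, had the same 16 bases. HIST1H2BK and HIST1H1C had gene models of coding sequence alone, with no stem-loop in them, as had 33 members in all. Of the 17 tested members with a transcript that ran over 100 bases past the stem-loop, 4 were called higher and 1 lower, with a median log2 change of 0.30. Of the 6 whose transcripts with a stem-loop all ended within 100 bases of it, 1 was called higher, HIST1H2BD, which also has a transcript without it, and the median was 0.08. The 20 without one in the model had 2 called higher and 1 lower, with a median of 0.11. Across all tested genes, 18.8% were called higher and 13.3% lower, with a median of 0.06. Most of the 20 had models of coding sequence alone, so gene length differs between these groups. Whether the stem-loop or the bases past it bear on the changes was not tested.

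Among the linker histone genes, HIST1H1C rose and no other tested one passed. HIST1H1C (ENSG00000187837, chr6:26055787-26056428, minus strand) encodes a linker histone made in most somatic cells. It stood at 69.8 and 73.5 TPM in shSASH1, against 37.4 and 43.3 TPM in shControl, from 294 and 247 rebuilt reads against 141 and 191. Both shSASH1 libraries lay above both shControl libraries. The means were 71.6 ± 2.61 and 40.4 ± 4.16 TPM (SD, n = 2 each), 1.77 times as high in shSASH1, with a log2 change of 0.81 ± 0.09 (SE; limma adjusted p = 0.00708). HIST1H1E, another somatic linker histone gene, had 18.6 and 22.03 TPM in shSASH1 and 17.0 and 15.8 TPM in shControl, with a log2 change of 0.29 ± 0.12 that did not pass (limma adjusted p = 0.123). HIST1H1B had 3.36 and 2.80 TPM in shSASH1 and 3.76 and 4.49 TPM in shControl, and HIST1H1A had 3.76 and 1.47 TPM in shSASH1 and 2.37 and 0.899 TPM in shControl. Neither of them passed, and HIST1H1D and the testis gene HIST1H1T stayed under a mean of 1 TPM.

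Of the 17 H2A genes, 8 were tested, 2 rose and 0 fell (also 0 lower at an unadjusted p under 0.05 and by voom on rebuilt reads). HIST1H2AC (ENSG00000180573, chr6:26124145-26139116, plus strand) showed the largest log2 change of any tested member on the log2(TPM + 1) scale, though not on every scale. With a pseudocount of 0.1 and with voom on rebuilt reads it was smaller in size than that of HIST1H3A, which has few reads. With voom it was also slightly smaller in size than that of HIST1H2BC (1.638 against -1.648). The ratio of mean TPM was larger for HIST1H2BE, at 3.54. HIST1H2AC had 54.3 and 50.7 TPM in shSASH1, against 16.3 and 15.8 TPM in shControl, from 594 and 443 rebuilt reads against 159 and 181. The 2 libraries of each group lay close together and far from the other group. The means were 52.5 ± 2.51 and 16.03 ± 0.316 TPM (SD, n = 2 each), a ratio of 3.27 and a log2 change of 1.65 ± 0.08 (SE; limma adjusted p = 0.00192). Its GENCODE model has 3 transcripts and 1668 exonic bases, of which the longest transcript runs 1128 bases past the stem-loop. HIST3H2A (ENSG00000181218, chr1:228456979-228457873, minus strand), in the small cluster on chromosome 1, had 51.2 and 52.9 TPM in shSASH1 and 32.0 and 36.3 TPM in shControl. The groups did not overlap, with a log2 change of 0.60 ± 0.09 (SE; limma adjusted p = 0.0117). The other 6 tested H2A genes, HIST2H2AC, HIST1H2AE, HIST1H2AG, HIST1H2AI, HIST1H2AJ and HIST1H2AL, had log2 changes of -0.71 to 0.23 and did not pass. Without a variance trend HIST1H2AJ was called lower (-0.45, limma adjusted p = 0.0450).

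The H2B genes moved in both directions, with 2 of 13 tested genes higher and 1 lower out of 18 in all. HIST1H2BK (ENSG00000197903, chr6:27146418-27146798, minus strand) was the most abundant member by TPM in every library, on a gene model of 381 bases. By rebuilt reads HIST1H2AC was higher in every library, so the rank depends on gene length. HIST1H2BK had 149 and 123 TPM in shSASH1, against 52.8 and 58.9 TPM in shControl, from 372 and 245 rebuilt reads against 118 and 154. The means were 136 ± 18.4 and 55.8 ± 4.29 TPM (SD, n = 2 each), a ratio of 2.43 and a log2 change of 1.26 ± 0.12 (SE; limma adjusted p = 0.00495). Every shSASH1 value was above 2 times every shControl value. HIST1H2BD (ENSG00000158373, chr6:26158146-26171349, plus strand) had 49.5 and 28.7 TPM in shSASH1, against 12.9 and 15.9 TPM in shControl. Its shSASH1 libraries differed widely from each other yet both lay above shControl, with a log2 change of 1.34 ± 0.28 (SE; limma adjusted p = 0.0275, and 0.0517 without the filter on low values or 0.0508 without a variance trend). In RefSeq the lncRNA gene H2BC6-AS1 and the pseudogene LARP1P1 overlap its span, while no exon of another gene in GENCODE overlaps its exons.

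HIST1H2BC (ENSG00000180596, chr6:26114873-26123926, minus strand) fell to 2.01 and 2.06 TPM in shSASH1, against 7.36 and 5.41 TPM in shControl. It rested on 11 and 9 rebuilt reads in shSASH1 and 36 and 31 in shControl. Both shSASH1 values were below both shControl values, with a log2 change of -1.27 ± 0.19 (SE; limma adjusted p = 0.0129). On the log2(TPM + 1) scale the change of such a low gene is understated, since the ratio of mean TPM was 0.319. The other 10 tested H2B genes were HIST1H2BJ, HIST1H2BO, HIST3H2BB, HIST1H2BH, HIST1H2BG, HIST2H2BE, HIST1H2BN, HIST1H2BE, HIST1H2BF and HIST1H2BL, and none passed. HIST1H2BE came nearest among those with higher values, at 1.36 and 2.44 TPM in shSASH1 and 0.396 and 0.676 TPM in shControl (log2 change 0.90 ± 0.29, limma adjusted p = 0.0779). HIST2H2BE had 2.29 and 3.31 TPM in shSASH1 and 1.24 and 1.46 TPM in shControl (0.68 ± 0.22, limma adjusted p = 0.0806). HIST1H2BL had 0.312 and 0.783 TPM in shSASH1 and 1.40 and 1.79 TPM in shControl (-0.76 ± 0.27, limma adjusted p = 0.096).

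The H3 genes were low throughout. Of 15, 11 were tested, 0 were called higher by limma (0 also at an unadjusted p under 0.05 and by voom on rebuilt reads) and HIST1H3A was called lower. HIST1H3A (ENSG00000275714, chr6:26020490-26020900, plus strand) had 0.741 and 0 TPM in shSASH1, against 2.49 and 2.13 TPM in shControl, from 2 and 0 rebuilt reads against 6 and 6. The ratio of summed reads per rebuilt total was 0.171, with an exact 95% interval of 0.0186 to 0.767 that covers counting error only. Its log2 change was -1.32 ± 0.34 (SE; limma adjusted p = 0.0464), and it did not pass with a pseudocount of 0.1 (adjusted p = 0.105), without the filter (0.0602), without a variance trend (0.0520), with voom on rebuilt reads (0.0749) or with a length and GC correction (0.0686). HIST3H3, first described as a testis H3 gene, had the highest shSASH1 level of the class, with 6.65 and 15.1 TPM in shSASH1 and 3.19 and 6.36 TPM in shControl. Both groups were wide and its log2 change of 0.998 ± 0.46 did not pass (limma adjusted p = 0.162, and 0.0171 with the replicate number as a block). The other 9 tested H3 genes, HIST1H3B, HIST1H3C, HIST1H3E, HIST1H3F, HIST1H3G, HIST1H3H, HIST1H3I, HIST1H3J and HIST2H3D, had log2 changes of -0.55 to 0.44.

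Of the 15 H4 genes, which all encode nearly the same protein, 7 were tested and 2 rose. HIST1H4I (ENSG00000276180, chr6:27138588-27139881, plus strand) had 31.3 and 41.9 TPM in shSASH1, against 18.1 and 13.96 TPM in shControl, from 266 and 284 rebuilt reads against 137 and 124. Both shSASH1 values exceeded both shControl values, with a log2 change of 1.14 ± 0.19 (SE; limma adjusted p = 0.0168). In RefSeq the span of HIST1H2BK on the opposite strand, chr6:27138293-27146858, covers HIST1H4I, while their GENCODE exons do not overlap. Whether the 2 genes share reads was not tested. HIST1H4H (ENSG00000158406, chr6:26277609-26285638, minus strand) had 5.35 and 7.15 TPM in shSASH1, against 1.66 and 2.36 TPM in shControl, from 76 and 81 rebuilt reads against 21 and 35. It was higher in both shSASH1 libraries, with a log2 change of 1.27 ± 0.22 (SE; limma adjusted p = 0.0176). The other 5, HIST1H4A, HIST1H4D, HIST1H4J, HIST1H4K and HIST4H4, had log2 changes of -0.69 to 0.53 and did not pass. HIST4H4, the single gene of the cluster on chromosome 12, had 1.71 and 2.37 TPM in shSASH1 and 1.32 and 0.960 TPM in shControl (0.50 ± 0.23, limma adjusted p = 0.163).

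**Figure D2:**
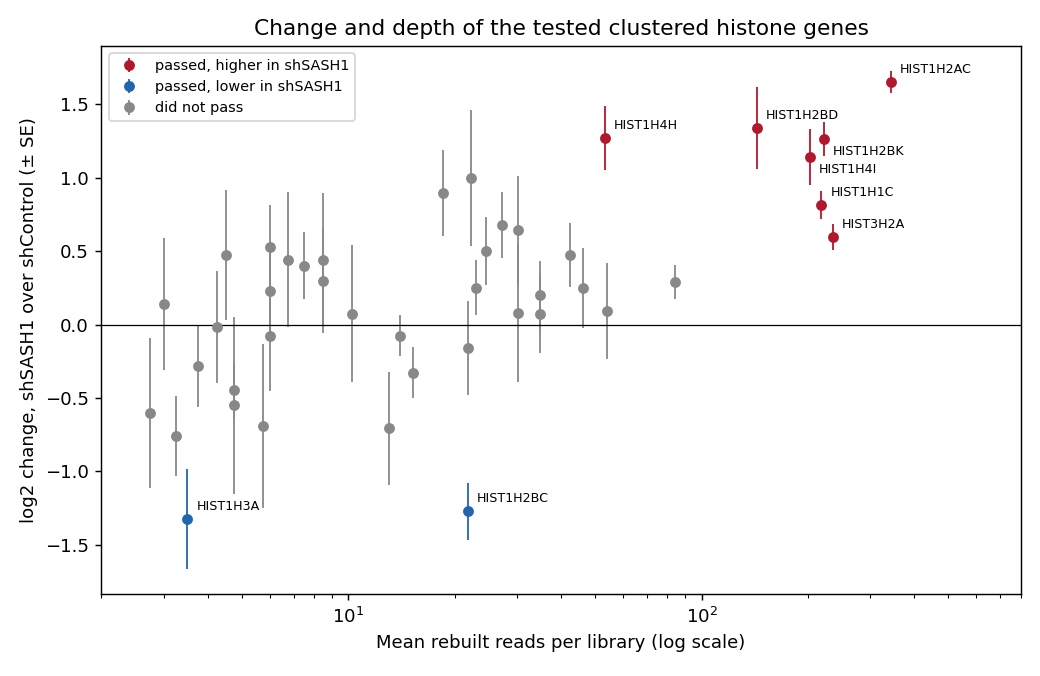
Log2 change (shSASH1 minus shControl, on log2(TPM + 1), bars 1 SE) of the 43 tested clustered histone genes against mean rebuilt reads per library (log axis), with calls by limma marked. The 7 genes called higher and HIST1H2BC lie at a mean of 20 reads or more, HIST1H3A lies below, and the SE bars are mostly wider at the low end.

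The calls in the higher direction did not change with the scaling used. All 7 passed with median-of-ratios scaling, quantile normalization, a pseudocount of 0.1, a correction for length and GC, voom on rebuilt reads and the replicate block. With either shControl library left out, limma called 0 of the 43 members, and 0 of all 14458 genes, since the spread then came from the shSASH1 pair alone. At an unadjusted p under 0.05 these fits had 7 members higher and 1 lower without shControl replicate 1, and 8 higher and 1 lower without shControl replicate 2. Without shSASH1 replicate 1 the median log2 change of the 43 members was 0.23, beside 0.09 for all tested genes. Without shSASH1 replicate 2 the median of the members was 0.35, beside 0.03 for all tested genes. More members were called in both of these fits, and so were more genes over the whole table.

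Summed over all 71 genes, clustered histone transcripts came to 535 and 501 TPM in shSASH1, against 278 and 303 TPM in shControl. The means were 518 ± 23.9 and 291 ± 17.6 TPM (SD, n = 2 each), 1.78 times as high in shSASH1, and both shSASH1 sums lay above both shControl sums. The 7 genes called higher made up 76.7% and 75.4% of the sum in shSASH1 and 61.5% in each shControl library. The other 64 genes together had 125 and 124 TPM in shSASH1 and 107 and 117 TPM in shControl, a ratio of 1.11. This split was chosen on the values it divides and is a description only. By class, the ratio of mean sums was 2.08 for H2B, 1.87 for H4, 1.72 for H2A, 1.56 for H1 and 1.24 for H3. By cluster it was 1.86 for HIST1 on chromosome 6, 1.58 for HIST3 and 0.917 for HIST2, whose 12 genes summed to 10.03 and 10.53 TPM in shSASH1 and 10.4 and 12.0 TPM in shControl. Only 3 of these 12 were tested. HIST2H2AC, the most abundant of them by mean TPM, rests on 13 and 5 rebuilt reads in shSASH1 and 11 and 23 in shControl. A difference between the clusters was not tested. In rebuilt reads, the members took 0.0124% and 0.0119% of the shSASH1 libraries and 0.00665% and 0.00712% of the shControl libraries. In bulk RNA, more cells that express a gene and more RNA per cell cannot be told apart.

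**Figure D3:**
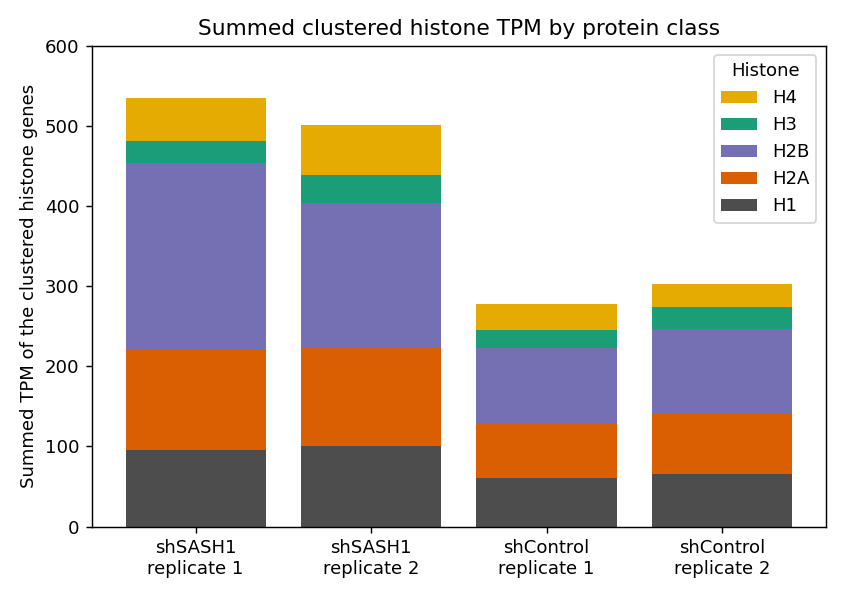
Summed TPM of the 71 clustered histone genes, 1 bar per library, stacked by histone class. H2B holds the largest sum, at 233 and 181 TPM in shSASH1 and 94.4 and 105 TPM in shControl, and H3 the smallest, at 28.0 and 35.3 TPM in shSASH1 and 23.4 and 27.5 TPM in shControl.

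The 28 genes under a mean of 1 TPM were not tested. Of these, 11 were at 0 in all 4 libraries and 17 were not. A level of 1 TPM or more in a library was reached by 4 of them. HIST1H2AB had 1.16 and 1.46 TPM in shSASH1 and 0.434 and 0 TPM in shControl, the only 1 of the 4 in which the groups did not overlap. These values rest on 3 and 3 rebuilt reads in shSASH1 and 1 and 0 in shControl. HIST1H4C had 0.350 and 1.32 TPM in shSASH1 and 0.784 and 1.34 TPM in shControl, HIST1H2AH had 0 and 1.48 TPM in shSASH1 and 0.881 and 0.753 TPM in shControl, and HIST1H1D had 0.458 and 0.860 TPM in shSASH1 and 0 and 1.09 TPM in shControl. Of the 11 listed at 0, 7 overlapped an exon of another gene. Over 90% of the stretches of 50 bases, compared on both strands, were shared with other annotated transcripts in 3 of them. HIST2H3A and HIST2H3C are a pair of copies, whose reads cannot be assigned to 1 copy. HIST1H2AK lies across from an exon of HIST1H2BN on the opposite strand, and whether reads were counted by strand is not given. Among tested members, HIST1H2BE, HIST1H2BN, HIST1H2AL and HIST1H3J overlap an exon of another gene, and HIST1H4K (100%), HIST1H2AJ (83.7%), HIST1H4J (81.2%), HIST2H3D (80.4%) and HIST1H2AI (62.3%) share most of their stretches of 50 bases. The values of these genes are uncertain for that reason. The 9 called members shared from 0% to 22.6% of their stretches of 50 bases.

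Many H2A and H2B genes are arranged head to head and share the DNA between their starts. There were 11 such pairs, with 219 to 331 bases between the starts, of which 6 had both genes tested. In the pair with both genes called, 219 bases apart, HIST1H2AC rose and HIST1H2BC fell, on either side of the promoter printed above. HIST1H2AC TPM was 27.0 and 24.6 times HIST1H2BC TPM in shSASH1, against 2.21 and 2.92 times in shControl. The groups could not overlap in this ratio, since HIST1H2AC lay above and HIST1H2BC below shControl in both shSASH1 libraries. The HIST1H2BC values in it rest on 11 and 9 rebuilt reads in shSASH1. The log2 changes of the pair partners had opposite signs in 4 of the 6 pairs and the same sign in 2. Apart from HIST1H2AC and HIST1H2BC, no gene of the opposite-sign pairs passed, so the signs in those pairs are uncertain. HIST3H2A, which rose, has HIST3H2BB as its partner, at 2.58 and 5.57 TPM in shSASH1 and 3.46 and 3.64 TPM in shControl (0.09 ± 0.33, limma adjusted p = 0.845). The partner of HIST1H2BK is HIST1H2AH, which was under 1 TPM.

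**Figure D4:**
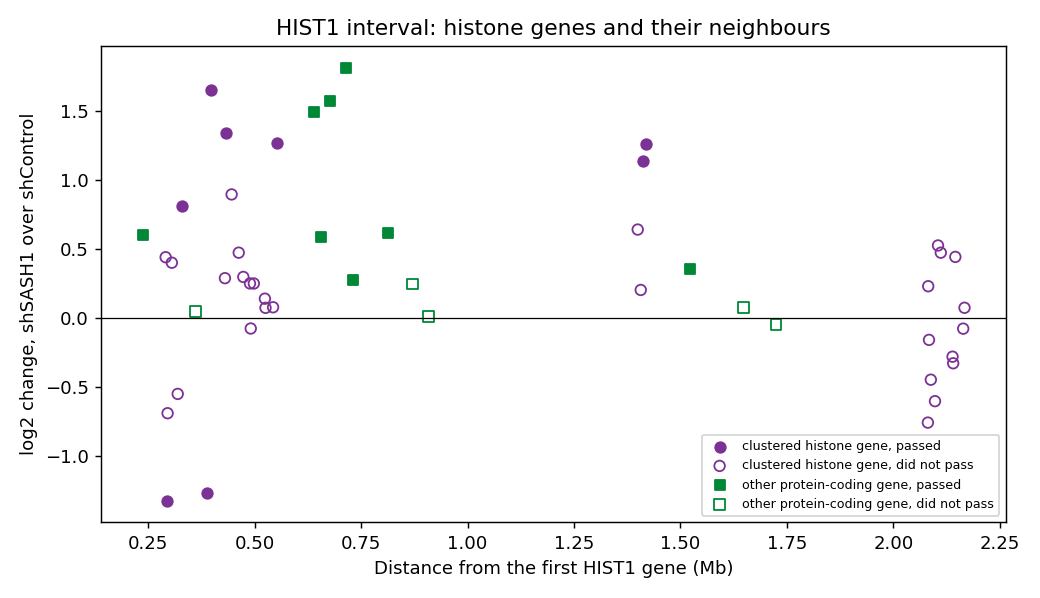
Log2 change (shSASH1 minus shControl) of tested HIST1 genes and of other tested protein-coding genes along the HIST1 interval of chromosome 6, by distance in Mb from its first histone gene, with filled symbols for genes that passed by limma. Histone genes that passed lie on both sides of 0 in the first part of the interval, where HIST1H2AC (the highest filled circle) and HIST1H2BC sit side by side, and all 8 neighbours that passed lie above 0.

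The HIST1 interval on chromosome 6, from 25726132 to 27893843, spans 2.17 Mb and also holds 19 protein-coding genes that are not histone genes. Of the 13 tested, 8 were called higher, against 18.8% of all tested genes, and 0 lower, against 13.3%, by limma (0 lower also at an unadjusted p under 0.05 and by voom on rebuilt reads, which called 7 higher), with a median log2 change of 0.35. For the 36 tested HIST1 genes the counts were 6 higher and 2 lower, with a median of 0.24. Without shControl replicate 1 or without shControl replicate 2 none of the 13 neighbours was called, as in the whole table. The most abundant neighbour was HMGN4, which encodes a nucleosome-binding protein, with 260 and 305 TPM in shSASH1 and 184 and 183 TPM in shControl (log2 change 0.61 ± 0.09, limma adjusted p = 0.0123). TRIM38, a ubiquitin ligase gene of innate immune signalling, had 84.5 and 113 TPM in shSASH1 and 64.1 and 64.0 TPM in shControl (0.60 ± 0.15, limma adjusted p = 0.0409), and BTN2A1, a butyrophilin gene, had 81.7 and 79.7 TPM in shSASH1 and 67.4 and 65.8 TPM in shControl (0.27 ± 0.06, limma adjusted p = 0.0283). The largest changes among the neighbours, named after their values were seen, were those of the butyrophilin genes BTN3A2, BTN3A1 and BTN3A3. BTN3A3 had 21.6 and 39.9 TPM in shSASH1 and 7.62 and 7.65 TPM in shControl (log2 change 1.82 ± 0.30, limma adjusted p = 0.0153). Whether the histone genes and their neighbours moved for a shared reason was not tested.

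Genes that make, process and use histones were mixed in direction. Of 85 such genes in 5 lists, 82 were tested and 26 were called (31.7%, near the 32.0% of all tested genes), 14 higher and 12 lower, with a median log2 change of -0.05. The split depended on the scaling, with 11 higher and 15 lower under median-of-ratios scaling, 8 and 20 under quantile normalization and 12 and 21 with voom on rebuilt reads. Leaving out 1 library moved these counts too, as it moved the number called over the whole table. Among 8 genes of histone gene transcription, 3 rose and 1 fell, with a median of 0.40. Of all tested genes, 18.8% were called higher and 13.3% lower. CDK2, the kinase that phosphorylates NPAT, had 43.0 and 49.0 TPM in shSASH1 and 26.8 and 28.8 TPM in shControl (0.70 ± 0.10, limma adjusted p = 0.0101). CCNE1, its cyclin, fell to 38.4 and 37.0 TPM in shSASH1, against 63.7 and 64.4 TPM in shControl (-0.75 ± 0.06, limma adjusted p = 0.00412). The regulator YY1 rose by 0.55 ± 0.08 and the phosphatase gene CDC25A by 0.43 ± 0.08 on the log2 scale. NPAT had 24.6 and 27.8 TPM in shSASH1 and 21.5 and 18.3 TPM in shControl, without overlap, but did not pass (0.38 ± 0.12, limma adjusted p = 0.0727).

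Among 20 genes of histone mRNA 3′ processing and decay, 1 rose and 2 fell, with a median log2 change of -0.07. The shares of all tested genes were 18.8% higher and 13.3% lower. The exonuclease gene ERI1, which trims and degrades histone mRNA, had 35.2 and 38.1 TPM in shSASH1 and 25.0 and 24.3 TPM in shControl (0.55 ± 0.08, limma adjusted p = 0.0112). SNRPB, a shared Sm protein gene, fell by 0.45 and SRRT by 0.23 on the log2 scale. SLBP, which binds the stem-loop, had 147 and 178 TPM in shSASH1 and 180 and 175 TPM in shControl, with overlapping groups (-0.13 ± 0.10, limma adjusted p = 0.368).

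Histone variant genes outside the clusters, most of which make polyadenylated mRNA, had 1 of 11 tested genes higher and 3 lower, with a median of -0.17. Beside these counts, 18.8% of all tested genes were higher and 13.3% lower. H2AFJ, a variant H2A gene, had 73.7 and 97.1 TPM in shSASH1 and 49.0 and 52.8 TPM in shControl (0.72 ± 0.15, limma adjusted p = 0.0256). H2AFX, whose protein is phosphorylated at DNA breaks, fell to 227 and 164 TPM in shSASH1, against 369 and 373 TPM in shControl (-0.94 ± 0.16, limma adjusted p = 0.0177). H2AFY2, a macroH2A gene, fell to 74.4 and 56.2 TPM in shSASH1, against 135 and 141 TPM in shControl (-1.08 ± 0.14, limma adjusted p = 0.00968). H2AFZ, which encodes H2A.Z, fell by 0.34 on the log2 scale. In each of these 4 genes the groups did not overlap.

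Of 20 tested chaperone and import genes, 6 rose and 2 fell, with a median log2 change of 0.13. Across all tested genes 18.8% were called higher and 13.3% lower. HJURP, the chaperone of the centromeric H3 variant, had 147 and 134 TPM in shSASH1 and 78.8 and 80.2 TPM in shControl (0.81 ± 0.07, limma adjusted p = 0.0044). RBBP4 rose by 0.56 ± 0.08 while its close relative RBBP7 fell to 87.3 and 91.5 TPM in shSASH1, against 156 and 160 TPM in shControl (-0.81 ± 0.06, limma adjusted p = 0.00317). CHAF1B of the replication-coupled assembly factor and SUPT16H of the FACT complex rose by 0.36 and 0.32, and ASF1A, which hands H3 and H4 to other chaperones, fell by 0.47.

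The 24 genes of S phase and DNA replication gave 3 higher and 4 lower, with a median log2 change of -0.08. Over all tested genes, 18.8% were called higher and 13.3% lower. PCNA, the sliding clamp of DNA polymerases, fell to 787 and 812 TPM in shSASH1, against 1182 and 1182 TPM in shControl (-0.56 ± 0.06, limma adjusted p = 0.00591). POLA1, the catalytic subunit of the polymerase that starts each new strand, fell to 27.5 and 28.5 TPM in shSASH1, against 58.8 and 55.4 TPM in shControl (-1.003 ± 0.07, limma adjusted p = 0.00313). The helicase genes MCM7 and MCM5 fell by 0.36 and 0.30, while the origin licensing genes CDC6 and CDT1 rose by 0.41 and 0.32 on the log2 scale. The lists were chosen with results of these data known, and the counts are given beside the share of all genes for that reason.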

How the data were processed

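TPM per Ensembl gene were deposited by the authors, made from total RNA extracted with TRIzol and an NEBNext Ultra library kit, per the labels' protocols. The submitters' processing notes name STAR, DESeq2 and hg38, with no role or version. Which counter, annotation and gene lengths were used, and whether reads were counted by strand, is not given in the sources used here. A rise of abundant transcripts lowers the TPM of the others. All 26518 identifiers were found in GENCODE release 29, whose 1-based positions are given. TPM keeps no depth, so reads were rebuilt as TPM times exon-union length, with a scale per library that made values of up to 20 reads whole: 89.2% and 88.6% of these in shSASH1 and 89.1% and 89.2% in shControl came within 0.05 of a whole number. These reads are estimates, and intervals on them cover counting error only.

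Genes averaging 1 TPM or more were fitted on the log2(TPM + 1) scale in limma 3.58.1 (R 4.3.3), with a variance trend and all 4 libraries, two-sided, adjusted by Benjamini-Hochberg over all 14458 genes at 0.05. Fold changes on this scale understate those of low genes. With 2 libraries a group, the smallest two-sided p of an exact permutation test is 0.333, so the calls rest on limma's model with 2.54 prior degrees of freedom. Sums have no test. The procedure was tested on simulated data. The members and lists were chosen with earlier results of these data known. All called members and those under 1 TPM with a library at 1 TPM were named, with SASH1, up to 6 called genes per list by size of change, NPAT, SLBP and the 3 most abundant neighbours. The other tested members are listed by symbol, and those given with values, and BTN3A1, BTN3A2 and BTN3A3, were picked after their values were seen. Alternatives were quantile normalization, median-of-ratios scaling, a pseudocount of 0.1, a filter at 5 TPM or none, voom on rebuilt reads, no variance trend, a replicate block, a minimum absolute log2 change of 1 and leaving out each library. A length and GC correction, and the alternatives for the neighbours, were chosen after seeing the data. Python 3.11.15 with pandas 2.3.3, numpy 2.4.6 and matplotlib 3.10.9 handled annotation and plots.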

Additional observations from a re-analysis of the deposited data

How the results depend on the processing

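The count of clustered histone genes called higher was 6 to 8 under each other alternative that kept all 4 libraries, and 5 when a log2 change of 1 or more in size was also asked. The count called lower was 2, also without a variance trend, where HIST1H2AJ took the place of HIST1H3A, and was 1 with a pseudocount of 0.1, without a filter, with voom on rebuilt reads and with the length and GC correction, and 0 with a filter at 5 TPM, which tests 10 members. With 1 library left out, the median log2 change of the tested members was 0.16 to 0.35, beside 0.03 to 0.09 for all tested genes. The calls then depended on which library was left out, as in the whole table. The ratio of summed TPM was 1.63 without HIST1H2BK and 1.71 to 1.86 with 1 library left out. For the 85 companion genes (14 higher, 12 lower), quantile normalization gave 8 and 20, voom 21 lower, no variance trend 6 higher and the replicate block 9 higher, and leaving out 1 library gave 0 to 24 higher and 0 to 23 lower. For the neighbours (8 higher, 0 lower), quantile normalization gave 5 higher, no variance trend 4, the replicate block 5, and leaving out 1 library 0 to 8 higher and 0 to 1 lower. No called log2 change of a member changed sign under any alternative. No pairing by the replicate numbers of the labels was seen over all tested genes. Same-numbered libraries deviated from their group means with a correlation of -0.0322, which cannot exclude a replicate effect in some genes. The replicate block gave 8 members higher, adding HIST3H3, and 2 lower. Members with few reads, a median of 15.5 per library, could show only large changes, and all calls rest on 2 libraries a group. The cause of these differences between settings was not tested beyond what is stated.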
